A study of Mus musculus with 12 samples.

Results

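Replication-dependent histone genes made up 63 of the 24561 genes in the count table of follicular T helper (Tfh) cells, as chosen by symbol: H1f1 to H1f5, and every H2ac, H2bc, H3c, H4c and Hist1h name. They comprised 5 linker histone H1 genes, 18 H2A, 17 H2B, 11 H3 and 12 H4 genes, of which 54 lie on chromosome 13 and 9 on chromosome 3. The family was selected on these data, because H3c13 was among the strongest decreases and differed between technical repeats, so its differences between the genotypes are given as values without p-values.

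The cells were CXCR5hiPD-1hi OT-II Tfh cells, CD4 T cells whose transgenic receptor recognises ovalbumin, on the C57BL/6 background. They were sorted from lymph nodes on day 3 after immunization of the recipients with NP-OVA, ovalbumin carrying a hapten. The groups were HET, in which the transferred cells carried CD4-Cre and Bcl6fl/+ (CD4-CrexBcl6fl/+), and WT, in which they carried CD4-Cre alone, so that Cre, which the Cd4 promoter drives in T cells, was present in both groups. All recipients were CD45.1 Sap-/- mice, whose own T cells give little help to B cells. Each group had 3 recipient mice and each mouse 2 technical repeats of about 200 cells, which gave 12 libraries of 3343375 to 8315722 counts. How many donors supplied the cells was not given in the sources used here, so a difference between genotypes and a difference between donors cannot be told apart.

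Each S phase doubles the DNA of a cell and so its need for histones, and replication-dependent histone genes supply them in a burst of transcription. The genes typically lack introns, lie in clusters, and in most cells end their mRNA not in a poly(A) tail but in a stem-loop, a short hairpin that the protein Slbp binds and that guides processing, translation and decay at the end of S phase. Tfh cells at this stage of a response divide. The labels give poly(A) RNA as the molecule and the libraries followed an adapted SMART-Seq2 protocol, which primes on poly(A), so the values below count the transcripts that entered such a library, and what share of each gene's mRNA carried a tail was not measured.

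The stem-loop shows how alike these genes are at the end of their mRNA. The motif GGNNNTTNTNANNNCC with a perfectly paired stem of 6 bases and a loop of 4 was found in the annotated transcripts of 41 of the 62 members that have one, against 26 of 23976 other genes (0.108%), among them the related histone genes H2ax, H2aw, H2bu2 and H4f16. H3c13 and H2bc18 brought the number to 43, because their stem-loops run past or lie beyond the end of the annotated transcript and were read from the opposite strand of an overlapping gene. The form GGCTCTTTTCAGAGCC was present in 25 members, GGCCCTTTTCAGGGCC in 6 and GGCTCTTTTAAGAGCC in 5. The sites of the members on which the results turn are given in the sense of the gene, on GRCm38, with the 16 bases of stem and loop in capitals. They include the gene with the largest decrease, its neighbour and near copy on chromosome 3, the genes with large increases, and genes of high level.
H3c13: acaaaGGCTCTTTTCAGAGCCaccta (chr3:96269130-96269155, plus strand)
H3c15: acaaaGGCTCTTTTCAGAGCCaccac (chr3:96238480-96238505, minus strand)
H2bc18: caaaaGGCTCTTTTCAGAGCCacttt (chr3:96270166-96270191, plus strand)
H2bc3: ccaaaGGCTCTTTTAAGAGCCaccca (chr13:23747198-23747223, plus strand)
Hist1h4n: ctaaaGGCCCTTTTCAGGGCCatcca (chr13:21831793-21831818, minus strand)
H4c4: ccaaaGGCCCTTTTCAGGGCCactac (chr13:23581945-23581970, plus strand)
H4c9: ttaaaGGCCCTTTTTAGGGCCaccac (chr13:22040961-22040986, minus strand)
H1f4: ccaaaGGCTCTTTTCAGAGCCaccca (chr13:23621777-23621802, minus strand)
H2ac8: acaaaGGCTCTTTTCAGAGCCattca (chr13:23570663-23570688, minus strand)
H2ac11: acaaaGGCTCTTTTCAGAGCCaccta (chr13:22042478-22042503, minus strand)
H3c13, H3c15, H2bc18, H1f4, H2ac8 and H2ac11 shared the most common form, H4c4 and Hist1h4n the second, and H2bc3 the third. H3c13 and H2ac11 carried the same 26 bases.

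Upstream, the sequences of the members also had shared letters. In the 250 bases before the start of a gene (RefSeq, GRCm38.p6, 48 members matched), CCAAT or its reverse complement ATTGG occurred in 41 members (85.4%) and in 34.5% of all 27025 promoters of the same length. TATAAA or its reverse complement TTTATA occurred in 23 members (47.9%) and in 13% of all promoters. Overlapping matches were kept. The windows of the gene that fell most, of its neighbour 3′ of it and of an H2B gene called higher in HET are shown as examples of genes with fold changes of different sign, of which that of H2bc18 did not pass the threshold. Capitals mark the 2 motifs on either strand.
H3c13: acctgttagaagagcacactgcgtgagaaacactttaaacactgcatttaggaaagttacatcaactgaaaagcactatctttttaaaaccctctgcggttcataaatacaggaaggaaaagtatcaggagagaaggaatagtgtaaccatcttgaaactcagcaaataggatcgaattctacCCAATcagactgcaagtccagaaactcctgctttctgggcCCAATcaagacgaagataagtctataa (chr3:96268404-96268653, plus strand)
H2bc18: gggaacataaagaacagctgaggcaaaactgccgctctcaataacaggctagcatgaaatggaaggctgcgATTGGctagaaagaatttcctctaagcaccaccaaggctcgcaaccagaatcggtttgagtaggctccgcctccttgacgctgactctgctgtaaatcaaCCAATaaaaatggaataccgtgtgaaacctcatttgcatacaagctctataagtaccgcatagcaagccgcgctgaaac (chr3:96269450-96269699, plus strand)
H2bc3: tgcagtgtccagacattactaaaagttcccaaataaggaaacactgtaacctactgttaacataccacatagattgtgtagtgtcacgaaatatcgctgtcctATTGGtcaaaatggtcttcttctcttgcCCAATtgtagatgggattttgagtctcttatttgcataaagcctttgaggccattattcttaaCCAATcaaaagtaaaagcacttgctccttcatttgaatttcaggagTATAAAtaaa (chr13:23746484-23746733, plus strand)
The window of H3c13 held 2 CCAAT matches, as did that of H2bc18, while that of H2bc3 held 3 and a TATAAA match beside the start.

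The targeted gene went against its label. Bcl6, the transcriptional repressor that defines Tfh cells, had normalised counts scaled to library size (CPM) of 150.0, 146 and 150.0 in the 3 mice labelled HET and of 54.8, 75.6 and 56.9 in those labelled WT, a log2 fold change (HET minus WT) of 1.25 ± 0.121 (SE). Counts over the whole gene do not show whether the floxed exons were present, so the direction of every difference below rests on the labels, and HET and WT stand for the libraries labelled so. Of 10 Tfh and T cell markers, all tested, 2 were called higher and 4 lower (9.17% and 8.82% of all genes). Their median log2 fold change was -0.21, and 3 lay above 0. They summed to 10208 to 11035 CPM in HET and 7857 to 9292 CPM in WT mice. Icos and Trac were called higher, with log2 fold changes of 0.64 and 0.55, and Cd4, Tcf7 and the sort markers Cxcr5 and Pdcd1 lower, with -0.34, -0.27, -0.40 and -0.42. The 10 B cell markers summed to 10.3 to 125 CPM in HET mice and 11.6 to 94.2 CPM in WT mice, and none of the 6 tested passed the test. The 7 myeloid markers measured summed to 108 to 112 CPM in HET and 83.6 to 89.95 CPM in WT, with Lyz2 called higher (7.77 ± 7.52 against 1.24 ± 1.02 CPM) and C1qa near 0. Of the CD8 T cell markers, Cd8a was at 0 in every HET library and Cd8b1 at 25.7 ± 5.57 CPM in HET and 34.1 ± 6.92 CPM in WT mice, not past the threshold. The 4 erythroid markers summed to at most 0.889 CPM, with Hbb-bt at 0 in all libraries. The part of other cells in the histone values was not tested.

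H3c13, which codes for a histone H3 of the core nucleosome, was the only member that passed the threshold as lower in HET. In the 6 HET libraries its level ran from 9.92 to 27.5 with a median of 18.3 CPM, and in the 6 WT libraries from 29.9 to 119 with a median of 54.2 CPM. With the repeats summed, the HET mice had 20.3, 17.4 and 19.8 CPM and the WT mice 54.1, 69.4 and 65.5 CPM. Every WT mouse thus lay above every HET mouse, a separation found in this direction for 17% of all genes. The family was chosen for this decrease, so the separation supports no inference. The 12 libraries did not overlap between the groups either, but they are 2 repeats of each of 6 mice. The means were 19.2 ± 1.56 and 63.01 ± 7.94 CPM (SD, n = 3 mice), and the log2 fold change was -1.71 ± 0.151 (SE).

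The size of the H3c13 difference depended on the repeat, and the WT libraries carried that dependence. In repeat 1 the WT mice had 67.3, 119 and 111 CPM, and in repeat 2 the same mice had 41.04, 29.9 and 32.7 CPM. The HET mice had 27.5, 14.95 and 9.92 CPM in repeat 1 and 15.2, 21.4 and 25.1 CPM in repeat 2. All 3 WT mice were higher in repeat 1, whereas HET mouse 1 was higher in repeat 1 and HET mice 2 and 3 in repeat 2. The log2 fold change was -2.47 ± 0.248 in repeat 1 alone and -0.76 ± 0.244 in repeat 2 alone, and the difference between the repeats within mice was -1.74 ± 0.364 (SE). The study's methods give 2 technical repeats for each mouse, which the labels number 1 and 2. The gap between these repeats is therefore not a difference between animals.

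**Figure D1:**
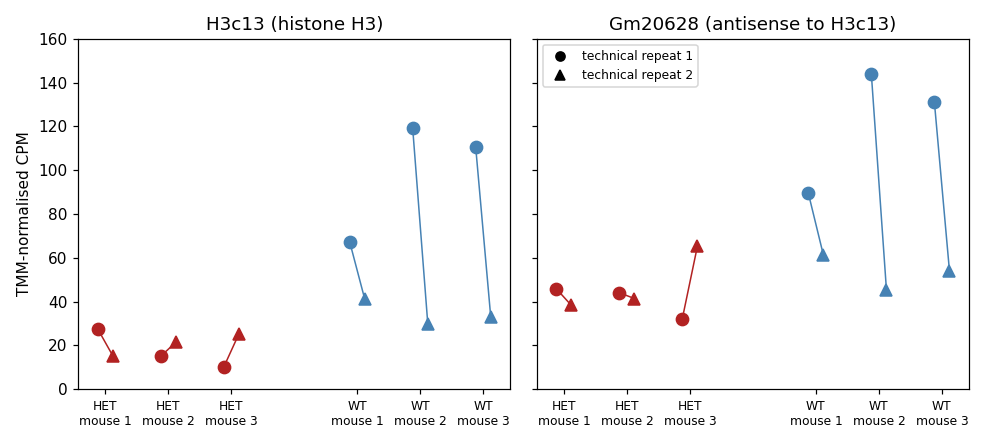
Level of H3c13 (left) and of its antisense neighbour Gm20628 (right) in each of the 12 libraries, in TMM-normalised CPM. Circles are technical repeat 1, triangles repeat 2, and a line joins the repeats of a mouse; the 3 WT mice drop from 67.3 to 119 CPM in repeat 1 to 29.9 to 41.04 CPM in repeat 2 for H3c13, and Gm20628 drops in the same mice.

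H3c13 (chr3:96268654-96269141, plus strand, a single exon of 488 bases) and the H2B gene H2bc18 (chr3:96269752-96270132) lie wholly within Gm20628, an antisense gene of a single 3215-base exon (chr3:96267075-96270289, minus strand). Gm20628 had 41.4, 42.8 and 53.9 CPM in the HET mice and 75.3, 88.9 and 86.4 CPM in the WT mice, a log2 fold change of -0.86 ± 0.131 (SE). It too was further apart in repeat 1, at -1.57, than in repeat 2, at -0.15. H3c13 had 0.308 to 0.601 counts for each count of Gm20628 in the HET libraries and 0.606 to 0.843 in the WT libraries. The strand setting of the counting was not given in the sources used here, so the reads of H3c13 and Gm20628 cannot be told apart. H2bc18, counted inside the same antisense exon, did not follow them: it had 1.97, 2.62 and 2.78 CPM in HET and 0.824, 0.356 and 1.05 CPM in WT mice, at 0 to 20 counts a library.

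H3c13 also had near copies. Of its 439 windows of 50 bases, 350 (79.7%) occurred in H3c15, in Gm20634 and in H3c14, which is not analysed here, and at most 68 (15.5%) in any H3 gene of chromosome 13. H3c15 (chr3:96238108-96239127, minus strand) codes for the same kind of histone and had the second most negative fold change, at few counts: 0.801, 0.0874 and 1.95 CPM in HET and 2.11, 2.40 and 2.63 CPM in WT mice, with HET libraries from 0 to 2.41 with a median of 0.922 CPM and WT libraries from 0.639 to 4.62 with a median of 2.52 CPM. Its log2 fold change was -1.35 ± 0.710 (SE) and did not pass the threshold, although the mice did not overlap. How reads matching both genes were assigned was not given in the sources used here, so the share of each gene is uncertain.

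Besides H3c13 and H3c15, the 4 other tested members of chromosome 3 lay above 0. H2bc21 (chr3:96221119-96223738) and H4c14 (chr3:96261682-96263311), an H2B and an H4 gene, were called higher in HET with log2 fold changes of 1.05 ± 0.276 and 1.15 ± 0.310 (SE). H2bc18 had the largest value of the cluster, 1.69 ± 0.633, without passing the threshold, and H2ac20, an H2A gene next to H2bc21, had 0.25 ± 0.137. Summed without H3c13, the 8 remaining genes of the chromosome 3 cluster came to 79.2 ± 3.79 CPM in HET and 57.8 ± 4.06 CPM in WT mice (SD, n = 3). With H3c13 included, the order of the groups turned, at 98.4 ± 5.22 and 121 ± 6.73 CPM. A single gene thus set the direction of the cluster total.

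Most members lay above 0 in the comparison of HET with WT. Of the 58 members with enough counts to test, 16 were called higher at an adjusted p under 0.05, where 9.17% of the 12719 genes tested were called higher, and 1, H3c13, was called lower, where 8.82% of genes were. The log2 fold change was above 0 in 51 of 58 members, against 6487 of 12719 genes, and its median was 0.55 over members and 0.011 over all genes. The 3 HET mice lay wholly above the 3 WT mice for 26 members (17.4% of genes) and wholly below for 3 (17% of genes), namely H3c13, H3c15 and H2ac15. The family was chosen on this comparison, for H3c13, so these counts are description and support no inference. The count of 16 was 9 without HET mouse 1 and 9 without WT mouse 3, and 6 with repeat 1 alone. With limma on log2 of the deposited TPM (transcript counts scaled by gene length), the count was also 6. There both the measure and the test differed from the main comparison. H2bc3, Hist1h4n and H3c13 were called in all 19 alternative analyses, and H2ac6 in 8 of 19.

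**Figure D2:**
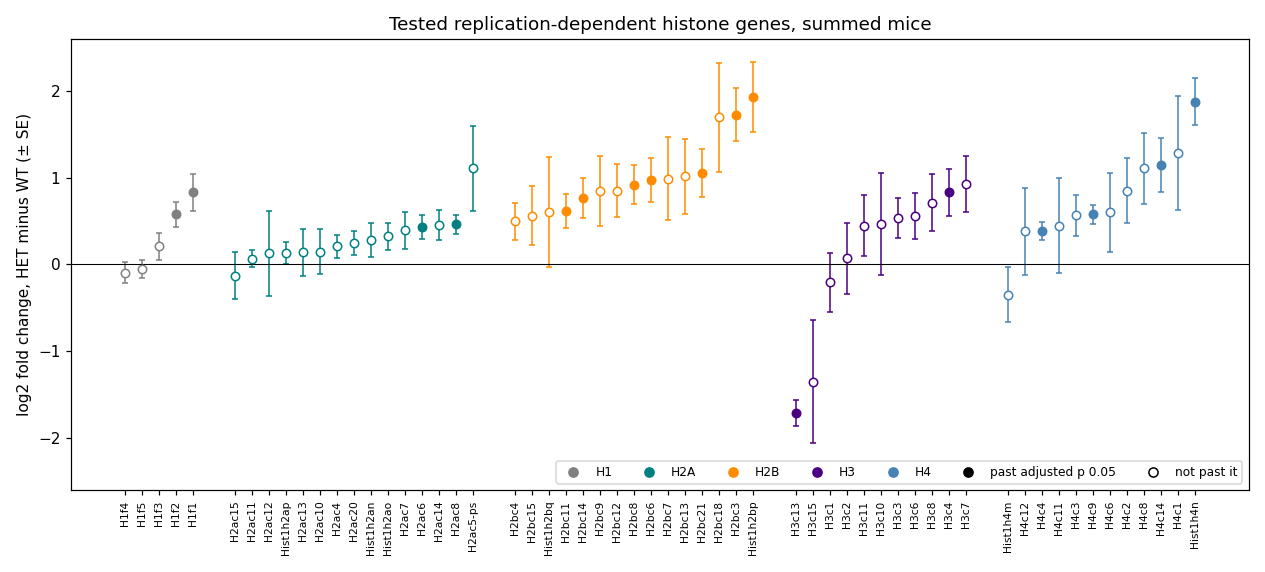
Log2 fold change (HET minus WT, bars ± SE, 3 mice against 3) of the 58 tested members on the vertical axis, grouped by histone family along the horizontal axis, with filled points past an adjusted p of 0.05. All 15 H2B genes lie above 0, 14 of the 15 H2A genes do too at a lower median of 0.25, and H3c13 is the lowest point at -1.71.

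The 63 members together summed to 2591 ± 247 CPM in HET and 2202 ± 194 CPM in WT mice (SD, n = 3), ranges of 2306 to 2744 and 2017 to 2404 CPM that overlapped. They took 0.215 to 0.285% of the counts of a HET library and 0.188 to 0.260% of those of a WT library. By the deposited TPM, which weigh short genes more, they took 0.915 to 1.14% and 0.833 to 1.12%. Between 58 and 62 of the 63 members had a count in any given library. In bulk samples, a different share of cells in S phase and a different amount of histone mRNA per cell cannot be told apart.

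The linker histones H1, which bind the DNA between nucleosomes, were the members with the least difference in total, 750.1 ± 106 CPM in HET and 741 ± 92.4 CPM in WT mice. H1f5 (chr13:21779883-21780625, minus strand) shared none of its 50-base windows with another gene and had the highest mean level over all libraries, 406, 322 and 351 CPM in HET and 398, 393 and 332 CPM in WT mice. Its libraries ran from 323 to 456 with a median of 347 CPM in HET and from 301 to 426 with a median of 375 CPM in WT, and its log2 fold change was -0.06 ± 0.102. H1f4 (chr13:23620629-23622558) had 281, 214 and 244 CPM in HET and 316, 258 and 216 CPM in WT mice, with libraries from 155 to 299.8 with a median of 256 CPM and from 189 to 337 with a median of 259 CPM, and a log2 fold change of -0.09 ± 0.121. The groups overlapped for both of these abundant genes. H1f2 and H1f1, at lower levels, were called higher, with log2 fold changes of 0.58 ± 0.142 (55.5 ± 7.26 against 37.2 ± 3.89 CPM) and 0.83 ± 0.212 (35.1 ± 12.3 against 19.8 ± 3.91 CPM). H1f3 had 0.21 ± 0.155.

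H2A genes, whose products pair with H2B in the nucleosome, held the largest share of the family, 949 ± 129 CPM in HET and 798 ± 59.4 CPM in WT mice, with a median log2 fold change of 0.25 over 15 tested genes. Hist1h2ap (chr13:21833026-21833507) had 229, 206 and 303 CPM in HET and 256, 218 and 199.7 CPM in WT mice. Its libraries ran from 178 to 323 with a median of 258 CPM in HET and from 145 to 290.4 with a median of 252 CPM in WT, the groups overlapped, and 93.07% of its 50-base windows occurred in other genes. H2ac8 (chr13:23570517-23571220) had 179, 186 and 241 CPM in HET and 146, 152 and 142 CPM in WT mice, and its log2 fold change of 0.46 ± 0.111 was called higher. The H2ac8 libraries, from 158 to 269.9 with a median of 191 CPM in HET and from 114 to 181 with a median of 154 CPM in WT, overlapped although the mice did not. H2ac11 (chr13:22042460-22042944) stayed near 0 at 0.07 ± 0.103, with 142, 131 and 143 CPM in HET and 130.0, 144 and 123 CPM in WT mice and libraries from 89.9 to 171 with a median of 140.0 CPM and from 110.3 to 179 with a median of 128 CPM. H2ac6 was also called higher, at 0.43 ± 0.139, but was -0.21 in repeat 1 alone. None of the others passed the threshold. Hist1h2ap, H2ac12, H2ac13 and H2ac10 had log2 fold changes of 0.13, 0.13, 0.14 and 0.15. H2ac4, H2ac20, Hist1h2an and Hist1h2ao had 0.21, 0.25, 0.28 and 0.32, while H2ac7 and H2ac14 reached 0.39 and 0.46. The pseudogene H2ac5-ps had 1.11 ± 0.491 at 3 to 36 counts. H2ac15, at -0.13 ± 0.274, had 7.50, 7.17 and 7.40 CPM in HET and 7.69, 7.82 and 8.63 CPM in WT mice, and its libraries ran from 6.45 to 7.81 with a median of 7.38 CPM in HET and from 5.43 to 11.6 with a median of 7.69 CPM in WT, so that mice that did not overlap differed by little.

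Of the 18 H2A members, 17 overlapped an annotated antisense gene, as did H3c13, H2bc18 and H4c2 among the other families. All 16 H2A antisense partners that were tested lay above 0, with a median log2 fold change of 0.26, 2 were called higher and 0 lower by edgeR (9.17% and 8.82% of all genes). Gm44394, opposite H2ac8, had 57.2 CPM in HET and 39.6 CPM in WT mice, a log2 fold change of 0.53 beside 0.46 for the gene. As with H3c13, reads of the partners cannot be told apart.

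H2B genes were the family with the largest relative difference. They summed to 177 ± 13.3 CPM in HET and 98.3 ± 12.6 CPM in WT mice, ranges of 167 to 192 and 88.2 to 112 CPM that did not overlap. All 15 tested genes lay above 0, from 0.50 (H2bc4) to 1.93 (Hist1h2bp), with a median of 0.92, and 7 were called higher, where 9.17% of all genes were. Hist1h2bp (chr13:21787461-21789213, 2 annotated exons) had 7.43, 6.82 and 7.20 CPM in HET and 2.56, 2.04 and 1.05 CPM in WT mice, with libraries from 4.89 to 8.17 with a median of 7.29 CPM and from 0.782 to 3.62 with a median of 1.64 CPM and a log2 fold change of 1.93 ± 0.401. H2bc3 (chr13:23746734-23747241), whose upstream window is shown above, had 12.2, 10.1 and 9.56 CPM in HET and 3.02, 3.02 and 3.53 CPM in WT mice, with libraries from 7.82 to 13.9 with a median of 10.04 CPM and from 2.59 to 4.10 with a median of 3.08 CPM and 1.73 ± 0.305. For both genes every HET library lay above every WT library, but these genes and H2bc18 were named for their large increases. The libraries of a group are 2 repeats of each of 3 mice. The mice lay apart in this direction in 17.4% of all genes. H2bc18 had a log2 fold change of 1.69 ± 0.633, with libraries from 1.84 to 2.90 with a median of 2.47 CPM in HET and from 0 to 1.30 with a median of 0.676 CPM in WT, which did not overlap either but held few counts. Called higher at intermediate levels were H2bc21 and H2bc6, at 1.05 and 0.97, H2bc8 at 0.92, H2bc14 at 0.77 and H2bc11, the most abundant H2B gene, at 0.62 (35.7 ± 5.77 against 23.4 ± 7.62 CPM). Values that did not pass the threshold were 1.01 for H2bc13, 0.99 for H2bc7, 0.85 for H2bc12 and 0.84 for H2bc9. Hist1h2bq, H2bc15 and H2bc4 had 0.60, 0.56 and 0.50.

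H3 genes supply, with H4, the tetramer at the centre of the nucleosome, and the family total turned on H3c13. The 11 genes summed to 92.9 ± 5.93 CPM in HET and 115 ± 4.56 CPM in WT mice, and the 10 genes other than H3c13 to 73.7 ± 5.03 CPM in HET and 52.4 ± 3.41 CPM in WT mice. H3c13 made up the larger part of the WT total and the smaller part of the HET total. H3c4 was called higher at 0.83 ± 0.266 (12.2 ± 0.974 against 6.90 ± 1.76 CPM). H3c7, H3c8, H3c6 and H3c3 had log2 fold changes of 0.92, 0.71, 0.56 and 0.54, and H3c10 and H3c11 of 0.47 and 0.45, none past the threshold. H3c2 lay near 0 at 0.07 ± 0.406. H3c1 had 4.15, 4.46 and 6.07 CPM in HET and 4.85, 5.42 and 6.53 CPM in WT mice, with libraries from 2.49 to 7.52 with a median of 4.40 CPM and from 3.84 to 8.91 with a median of 5.19 CPM, which overlapped at a log2 fold change of -0.20 ± 0.340.

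H4 genes summed to 621 ± 57.1 CPM in HET and 449 ± 51.8 CPM in WT mice, ranges of 558 to 670.0 and 409 to 507 CPM that did not overlap. H4c4 (chr13:23581598-23582735), the member with the highest mean level in HET, had 461, 358 and 431 CPM in HET and 362, 302 and 296 CPM in WT mice. Its libraries ran from 304 to 499 with a median of 415 CPM in HET and from 267 to 372 with a median of 324 CPM in WT, and its log2 fold change of 0.38 ± 0.105 was called higher although the mice overlapped. Hist1h4n (chr13:21831767-21832196) had 14.3, 15.04 and 21.7 CPM in HET and 4.76, 3.47 and 5.56 CPM in WT mice. Its libraries ran from 9.92 to 27.9 with a median of 14.3 CPM in HET and from 2.61 to 6.15 with a median of 4.75 CPM in WT. They did not overlap, but Hist1h4n was named for its large increase, a log2 fold change of 1.88 ± 0.271. Of its 50-base windows, 85.56% occurred in other genes. H4c14 and H4c9 were called higher at 1.15 and 0.58 ± 0.112, the latter with 126 ± 6.85 against 84.4 ± 9.80 CPM. H4c1 had 2.48, 1.22 and 3.19 CPM in HET and 1.47, 0.356 and 0.976 CPM in WT mice, with libraries from 1.02 to 4.07 with a median of 1.58 CPM and from 0 to 2.17 with a median of 0.761 CPM, and its 1.29 ± 0.656 did not pass the threshold. Hist1h4m was the only H4 gene below 0, at -0.35 ± 0.317, with 5.17, 6.03 and 5.24 CPM in HET and 7.51, 5.07 and 8.33 CPM in WT mice and libraries from 3.55 to 7.40 with a median of 5.15 CPM and from 4.42 to 9.94 with a median of 6.90 CPM. H4c8, H4c2 and H4c6 had 1.11, 0.85 and 0.60, and H4c3, H4c11 and H4c12 had 0.57, 0.44 and 0.38, all short of the threshold.

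**Figure D3:**
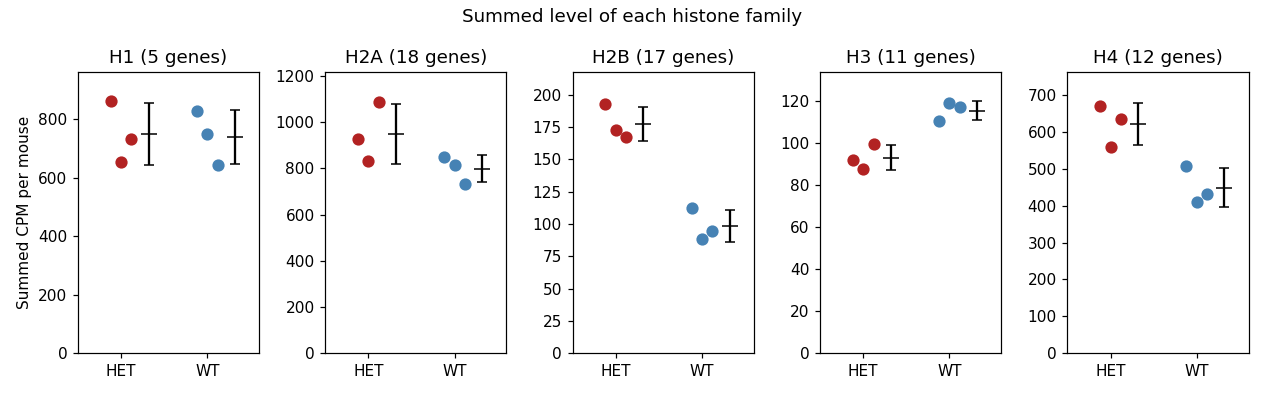
Summed level of each histone family in CPM per mouse (points) with mean ± SD over 3 mice (bars), each panel on its own scale from 0. H2B and H4 totals were higher in HET without overlap, H1 and H2A totals overlapped, and the H3 total was lower in HET, at 92.9 ± 5.93 against 115 ± 4.56 CPM.

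Levels between genes were compared per kilobase of annotated exon. Hist1h2ap and H1f5 led, at 510.2 and 484 CPM per kb in HET and 466 and 504 CPM per kb in WT, and which of them was higher differed between the groups. H4c4 followed at 366 and 281 CPM per kb, H2ac8 at 287 and 209, and H2ac11 at 286 and 273. H3c13 was at 39.3 CPM per kb in HET and 129 CPM per kb in WT, where it stood close to H1f4 (136). Some annotated transcripts run far past the stem-loop, 1153 bases in H1f4, which lowers the value per kb of a gene whose reads end earlier. The 5 members that failed the filter, H2ac18, H2ac19, H2ac21, H2bc1 and Hist1h2br, had 0 to 8 counts in any library.

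Members were also grouped by where the annotated transcript ends, because the libraries primed on poly(A) and an mRNA cut at the stem-loop carries none. The 23 members that end within 100 bases of the stem-loop (21 tested, 5 called higher and 0 lower; over all genes 9.17% and 8.82%) had a median log2 fold change of 0.60 and summed to 749.8 ± 91.1 CPM in HET and 620.1 ± 62.97 CPM in WT. The 18 that extend further (all tested, 9 called higher, 0 lower) had a median of 0.57 and summed to 1255 ± 115 and 996 ± 102 CPM. The medians of the 2 classes were close. The 21 members without a stem-loop in the annotated transcript (18 tested, 2 called higher, 1 lower) had a median of 0.45 and summed to 582 ± 65.4 and 584 ± 49.9 CPM. This class holds H3c13, at 19.2 CPM in HET and 63.01 CPM in WT, and without H3c13 its sum was higher in HET. Identity between members limits each of these values, since 58 of 62 members shared at least 1 window of 50 bases with another gene and 31 shared over 50% of their windows.

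The fold change was larger in repeat 2 than in repeat 1 for 38 of the 53 members tested in both. In repeat 1 alone, 54 members were tested, 6 were called higher (4.85% of 11286 genes) and H3c13 lower (4.54% of genes), with a median log2 fold change of 0.23. In repeat 2 alone, 55 were tested, 15 were called higher (6.33% of 11623 genes) and H3c13 lower (6.11% of genes), with a median of 0.68. Of these 53 members, 36 lay above 0 in both, 3 below 0 in both, and 13 below 0 in repeat 1 and above 0 in repeat 2. The median over H3 genes was -0.15 in repeat 1 and 0.72 in repeat 2, and over H2A genes -0.08 and 0.50. The medians lay closer together for H1 genes, at 0.04 and 0.28, for H2B genes, at 1.03 and 0.92, and for H4 genes, at 0.66 and 0.59. H2bc3, Hist1h4n and H4c9 were called higher in both. The difference of the fold change between repeats passed the threshold in 13 of 11259 genes (0.115%), and H3c13 was the only member among the 53 tested. The family was chosen in part for that difference in H3c13, so nothing is read from this count. H3c2 had a larger difference, at -1.99 ± 0.935 (SE), with counts from 1 to 45.

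**Figure D4:**
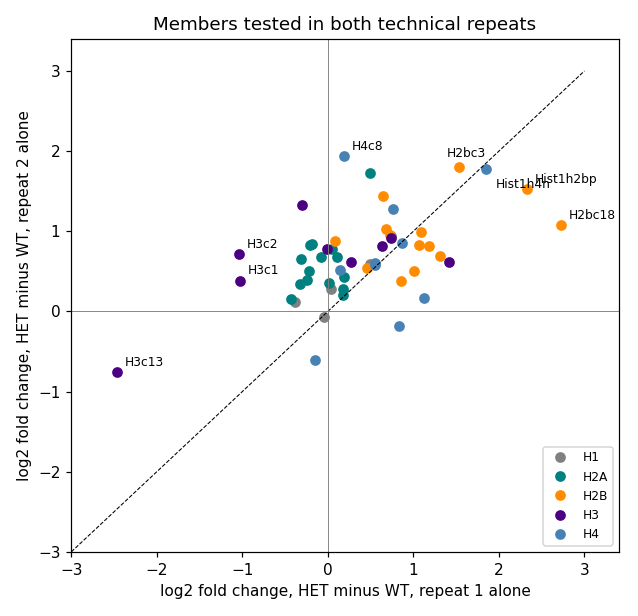
Log2 fold change (HET minus WT) of the 53 members tested in both technical repeats, with repeat 1 alone on the horizontal and repeat 2 alone on the vertical axis, coloured by family; the dashed line marks equal values. Most members lie above the line, 13 are below 0 in repeat 1 only, and H3c13 stands apart at -2.47 and -0.76.

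The repeats themselves, compared within mice over both genotypes, is a contrast on which the family was not chosen, apart from H3c13. With edgeR, 0 of 11259 genes (0%) passed the threshold and 4.29% had an unadjusted p under 0.05. Of the 53 members tested 0 passed, the smallest adjusted p being 0.998, and 5 had an unadjusted p under 0.05, among them H3c13 at a log2 difference (repeat 1 minus repeat 2) of 0.71. The other 4 were Hist1h2ap at 0.32, Hist1h2ao at 0.30, H4c2 at -0.83 and H1f2 at -0.29. With DESeq2, 0 of 63 members passed and 3 had an unadjusted p under 0.05. The median log2 difference over the members was -0.06.

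Histone variants are made also outside S phase. Of 13 replication-independent variants measured, 10 were tested, 2 were called higher and 0 lower (9.17% and 8.82% of all genes), with a median log2 fold change of 0.05. Macroh2a1, a large H2A variant found on repressed chromatin, rose by 0.52 ± 0.101 (edgeR quasi-likelihood test, adjusted p = 0.000949; 223 ± 6.999 against 155 ± 17.5 CPM). H1f0, a linker histone of resting and differentiated cells, rose by 0.33 ± 0.113 (edgeR quasi-likelihood test, adjusted p = 0.0424; 165 ± 19.5 against 131 ± 15.8 CPM). The variants summed to 4680.0 to 5390.2 CPM in HET and 5208 to 5242 CPM in WT mice, more than the replication-dependent genes in these libraries.

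Among 47 genes of histone mRNA transcription, processing and decay, 46 were tested, 7 were called higher and 5 lower (9.17% and 8.82% of all genes), with a median of -0.01. The 5 of smallest p code for Sm and Lsm proteins, small ring-forming RNA-binding proteins that also serve splicing and mRNA decay at large. They were Snrpg at 0.68 ± 0.0927 (edgeR quasi-likelihood test, adjusted p = 2.87e-05; 841 ± 49.1 against 524 ± 53.1 CPM), Snrpf at 0.61 ± 0.101 (edgeR quasi-likelihood test, adjusted p = 0.000215; 289 ± 26.3 against 189 ± 17.4 CPM) and Lsm7 at 0.68 ± 0.114 (edgeR quasi-likelihood test, adjusted p = 0.000238; 119 ± 13.3 against 73.97 ± 4.59 CPM). Lsm6 had 0.48 ± 0.0958 with adjusted p = 0.00118 and Snrpe 0.41 ± 0.0901 with adjusted p = 0.00267 by the same edgeR test. Of the other Sm and Lsm genes of the list, a grouping made after the values were seen, Lsm3 and Lsm5 were also called higher, and Snrpb, Snrpd3, Lsm1, Lsm2, Lsm4, Lsm10 and Lsm11 did not pass the threshold. By edgeR, 5 fell, of which Eri1, an exonuclease that trims the histone stem-loop, had -0.39 ± 0.113 with adjusted p = 0.0173, and Mif4gd, a partner of Slbp in translation, -0.32 ± 0.107 with adjusted p = 0.0417. Slbp itself had 318 ± 25.9 CPM in HET and 375 ± 36.9 CPM in WT mice and a log2 fold change of -0.24 ± 0.0979 with adjusted p = 0.0966, and Npat, the activator of histone gene transcription, had 0.16 ± 0.154 with adjusted p = 0.529 by edgeR, neither past the threshold. Eri1, Mif4gd, Slbp and Npat were singled out for their role after the values were seen.

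Histone chaperones and assembly factors, which carry new histones to DNA, had 1 gene called higher and 8 lower of 29 tested (9.17% and 8.82% of all genes), with a median of -0.06. Anp32e, a chaperone that removes H2A.Z, fell to a log2 fold change of -0.67 ± 0.0934 (edgeR quasi-likelihood test, adjusted p = 3.72e-05; 245 ± 17.6 against 391 ± 21.6 CPM). Rbbp4 and Rbbp7, histone-binding subunits of assembly and deacetylase complexes, fell to -0.69 ± 0.0973 with adjusted p = 4.76e-05 and -0.50 ± 0.0938 with adjusted p = 0.000728 by the edgeR test. Nap1l4, a nucleosome assembly protein, fell to -0.50 ± 0.103 by edgeR with adjusted p = 0.00156. Atrx, a remodeller that deposits H3 outside replication, rose by 0.60 ± 0.10 by edgeR with adjusted p = 0.000249.

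S phase genes share the timing of replication-dependent histones. Of 48 tested, 2 were called higher and 11 lower (9.17% and 8.82% of all genes), with a median log2 fold change of -0.04, and they summed to 8292 to 8627 CPM in HET and 8658 to 10006 CPM in WT mice. Fen1, Rpa1, Pold2 and Uhrf1, which act in flap removal, single-strand binding, lagging-strand synthesis and maintenance of methylation, fell to -0.62, -0.64, -0.64 and -0.49, with adjusted p of 0.000268, 0.000347, 0.000838 and 0.00133. Pole, a subunit of the leading-strand polymerase, rose by 0.86 ± 0.135 (edgeR quasi-likelihood test, adjusted p = 0.000138; 78.2 ± 1.91 against 43.1 ± 7.68 CPM). Of 26 mitosis genes, all tested, 6 were called higher and 2 lower (9.17% and 8.82% of all genes), with a median of -0.04 and sums of 7409 to 7502 CPM in HET and 6124 to 7081 CPM in WT mice. Mki67, Top2a and Cenpe, a proliferation marker, a topoisomerase and a kinetochore motor, rose by 0.63, 0.54 and 0.61, and Ube2c and Hmmr by 0.49 and 0.44, with adjusted p from 0.000194 to 0.00410. The sixth gene called higher was Cenpf at 0.39, the genes called lower were the mitotic kinases Nek2 and Bub1 at -0.44 and -0.41, and 11 of the 26 lay above 0. Cenpf, Nek2 and Bub1 were named after the values were seen. The part of cell cycle stage in the histone differences was not tested.

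**Figure D5:**
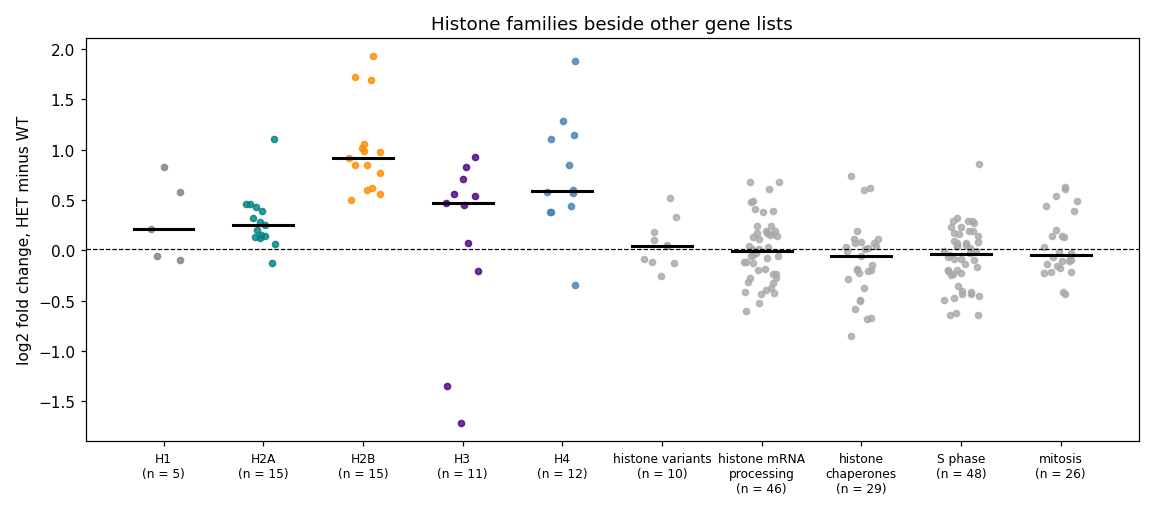
Log2 fold change (HET minus WT, 6 mice) of every tested gene of the 5 histone families and of 5 other gene lists, with the median of each as a bar and that of all 12719 genes as a dashed line. The medians of the other lists lie between -0.06 and 0.05, and those of the histone families between 0.21 and 0.92.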

How the data were processed

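Per the study's methods and labels, the authors ran FastQC on the reads, used Hisat2 2.2.1 for alignment to GRCm38 and HTSeq-count for counting, and the deposited count table holds unnormalised whole numbers. The annotation release, the strand setting and the treatment of multiply mapping reads were not given in the sources used here. A table of TPM for 24530 genes was deposited as well, scaled per library and by a gene length whose definition was not given in the sources used here. RNA-seq of other cells was not analysed here.

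Counts of the 2 technical repeats were added up within a mouse. HET and WT were then compared over 6 mice by the quasi-likelihood test of edgeR 4.0.16 (R 4.3.3, TMM scaling, filterByExpr, Benjamini-Hochberg adjustment over all 12719 genes tested, threshold 0.05). Each repeat was also fitted alone, and the repeats were compared within mice over the 12 libraries. Standard errors were taken from the fold change and the F statistic. CPM are TMM-normalised, and levels per kilobase used exon lengths of GENCODE vM21, which found 23822 symbols by name, 238 by synonym and not 501. Replicates were separate recipient mice. Whether mouse numbers pair the groups was checked by the correlation of deviations from the group means. Scripts were tested on simulated counts. The SMART-Seq2 protocol carries no molecular identifiers, so counts are not independent molecules.

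The members and gene lists were chosen with earlier results of these data known. Library values were given in full for H3c13 and as mice with the lowest, median and highest library for the 6 members of highest mean CPM and the 5 tested members of largest fold change in each direction, every tested member was named with its fold change, and of other lists up to 5 genes past the threshold by smallest p, beside further genes named after their values were seen (in the histone mRNA, mitosis and marker lists). Alternatives were DESeq2 1.42.0, each repeat alone, 12 libraries as independent samples, other scalings and filters, limma 3.58.1 on log2(TPM + 1) and log2(TPM + 0.1), whose fold changes are on that scale and depend on the pseudocount in low genes, a replicate block, removal of GC and length trends with mgcv 1.9.3 (values for 99.17% of tested genes), and leaving out each mouse. No column was left unmapped.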

Additional observations from a re-analysis of the deposited data

Results flagged for a closer look

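Of 42 groups of 6 libraries examined (levels of named members and of summed families in each genotype), 4 held a library set apart from the other 5 by more than Dixon's limit, where chance gives about 1 in 20 groups, or 2.1 of 42. That rate is for independent values. Here the libraries of a group are repeats of the same mice and the summed families contain the named members, so the rate is only a rough guide. H1f5 stood at 456 CPM in repeat 1 of HET mouse 1, against a median of 333 CPM in the other HET libraries. Repeat 2 of HET mouse 3 accounted for the other 3. It had 269.9 CPM for H2ac8 against a median of 188 CPM, 27.9 CPM for Hist1h4n against a median of 14.0 CPM, and 1200 CPM for the summed H2A members against a median of 880.3 CPM. H2ac8 remained called without HET mouse 3, and so did Hist1h4n. The cause was not tested.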

How the results depend on the processing

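The family was chosen for the decrease of H3c13 in these counts, so the alternatives describe that value and do not support it: its log2 fold change ran from -2.47 in repeat 1 alone to -0.76 in repeat 2 alone. H2ac6, called higher at 0.43, was -0.21 in repeat 1 alone; the other members called higher stayed above 0 in each alternative that tested them. The count of members called higher, 16, was 6 in repeat 1 alone and 6 and 6 with limma on log2(TPM + 1) and log2(TPM + 0.1), and 9 to 16 when a mouse was left out, with 9 both without HET mouse 1 and without WT mouse 3. The median log2 fold change of members, 0.55, was 0.23 in repeat 1 alone and 0.68 in repeat 2 alone, 0.49 with DESeq2, 0.48 with any gene of at least 1 count, 0.47 with at least 10 counts in every library, 0.34 and 0.38 on the 2 TPM scales, 0.48 with GC and length trends removed, and 0.48 to 0.62 when a mouse was left out. The other gene lists, with 18 called higher and 26 lower in all, had 8 lower in repeat 1 alone, 8 higher with log2(TPM + 1), 7 higher and 17 lower with log2(TPM + 0.1), and 16 to 24 lower when a mouse was left out, 16 being without WT mouse 3. In the comparison of the repeats, members called stayed at 0 in every alternative run (edgeR and DESeq2). The causes were not tested.

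The correlations of same-numbered mice were 0.11, -0.026 and 0.048, and those of differently numbered mice ran from -0.12 to 0.071. With 3 mice in each group, these values cannot settle whether mouse numbers pair the groups. With a replicate block, 18 members were called higher and 1 lower, the median was 0.53, and H2bc12 and H3c7 joined the calls. With the block and GC and length trends removed together, 18 were called higher and the median was 0.48. Under upper-quartile scaling the median over all genes was 0.0447, and 0.011 under TMM. H2bc18 had 0 to 20 counts a library, and the SE of its log2 fold change was 0.633.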
